A study of Mus musculus with 2 samples.

Results

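TBX5 binding was read at the loci of 4 genes of cardiac calcium release, Ryr2, Casq2, Trdn and Jph2. The members are TBX5 peaks of adult mouse ventricle whose summit lies in 1 of 4 fixed windows of the mm9 genome. These run on chromosome 13 from 11.60 to 12.26 Mb for Ryr2 with its upstream flank, on chromosome 3 from 101.84 to 102.0 Mb for Casq2, on chromosome 10 from 32.75 to 33.25 Mb for Trdn and on chromosome 2 from 163.11 to 163.29 Mb for Jph2. The windows held 28 of the 8849 peaks of the list: 13 at Ryr2, 3 at Casq2, 2 at Trdn and 10 at Jph2. The tissue was ventricle of wild-type C57BL/6 mice aged 15 weeks, untreated, with chromatin crosslinked in 2% formaldehyde. One group was immunoprecipitated with an antibody against TBX5 and the other with a rabbit IgG, and the DNA was sequenced (ChIP-seq). The design text names 2 biological replicates per antibody, but the values are those of 1 merged TBX5 list, so no spread between replicates stands behind them and no difference between loci was tested. Ventricle is a mixture of cell types, and binding in more cells cannot be told apart from stronger binding per cell.

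In a heart muscle cell, a small calcium current through the surface membrane opens the ryanodine receptor on the sarcoplasmic reticulum, and the released calcium starts contraction. Ryr2 encodes this release channel. Casq2 encodes calsequestrin, the protein that buffers calcium inside the reticulum, and Trdn encodes triadin, which links calsequestrin to the channel. Jph2 encodes junctophilin, which holds the reticulum close to the surface membrane where release takes place. TBX5 is a T-box transcription factor known for its part in heart development and in the cardiac conduction system.

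Each peak carries a fold, the authors' enrichment of TBX5 fragments over a local control level at the summit. From the deposited fold and p-value, the number of TBX5 fragments at the summit and the control level (in fragments per position) were recovered for every peak, and fragments are given with exact 95% Poisson intervals, which cover counting error only. Which library served as the control is not given in the labels, so it is called the control and not IgG. No mm9 annotation was used here, so no peak is placed in an exon, an intron or a promoter, and a window may hold part of a neighbouring gene. In the order of the GRCm38.p6 gene table, the protein-coding neighbours were Chrm3 and Mtr for Ryr2, Nhlh2 and Vangl1 for Casq2, Nkain2 and Clvs2 for Trdn, and Tox2 and Oser1 for Jph2.

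The DNA under the peaks could not be read, since an mm9 genome was not used here. The sequence just before the gene start was at hand for Ryr2, Casq2 and Jph2 from RefSeq (build GRCm38.p6) and is shown because it was the only promoter sequence of these loci at hand. Its positions are on that build and cannot be set beside the mm9 positions of the peaks, so whether a peak covers it was not tested. Capitals mark E-boxes (CANNTG, the site of basic helix-loop-helix factors) within the printed stretch. The Jph2 stretch is shorter, 194 bases, because it stops at the outermost start of the gene in the RefSeq gene table, and it holds no E-box.
Ryr2, chr13:12106946-12107195, minus strand: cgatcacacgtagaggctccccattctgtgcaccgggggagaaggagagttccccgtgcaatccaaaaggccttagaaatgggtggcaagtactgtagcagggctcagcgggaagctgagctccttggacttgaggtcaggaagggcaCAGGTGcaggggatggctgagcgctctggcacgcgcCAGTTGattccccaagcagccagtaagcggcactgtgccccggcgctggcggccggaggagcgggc
Casq2, chr3:102086165-102086414, plus strand: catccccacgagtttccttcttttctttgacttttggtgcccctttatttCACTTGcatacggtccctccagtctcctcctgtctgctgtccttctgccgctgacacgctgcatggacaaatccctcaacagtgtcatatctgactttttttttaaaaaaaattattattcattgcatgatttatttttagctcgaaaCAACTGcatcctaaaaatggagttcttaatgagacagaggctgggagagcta
Jph2, chr2:163398050-163398243, minus strand: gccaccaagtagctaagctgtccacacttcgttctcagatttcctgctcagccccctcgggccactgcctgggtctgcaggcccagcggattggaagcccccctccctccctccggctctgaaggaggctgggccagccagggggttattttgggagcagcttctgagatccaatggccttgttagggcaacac

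The letters were searched in the table's full 300-base windows, of which Jph2 had 2 and the one lying farther upstream was used. In these windows, the T-box letters AGGTGT were found on neither strand in any of the 3, and 13.7% of the table's 32851 promoter windows held them. GATA letters (AGATAA or TGATAA, in 18.6% of all windows), NKX2-5 letters (TNAAGTG, 11.5%), TEAD letters (GGAATG, 14.7%) and the MEF2 letters CTA and TAG spaced by 4 bases (3.69%) were not found in the 3 windows either. An E-box, which shares letters with the T-box string where both overlap, was present in all 3, with 2 matches at Ryr2, 2 at Casq2 and 1 at Jph2, and in 72.3% of all windows. The Jph2 match lies past the end of the stretch printed above. These are matches of letters in short windows and do not describe the bound regions.

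The loci differed widely in how many TBX5 peaks they held. Jph2 had 55.6 peaks per Mb (95% Poisson interval 26.6 to 102), Ryr2 19.7 (10.5 to 33.7), Casq2 18.8 (3.87 to 54.8) and Trdn 4 (0.484 to 14.4), against 3.68 per Mb over chromosomes 1 to 19. Trdn, at 1.09 times the autosomal density, was close to it. Ryr2 and Casq2 stood at 5.35 and 5.09 times and Jph2 at 15.1 times. The Casq2 value rests on 3 peaks, of which 2 were left when peaks within 1 kb were joined. Of the 6 pairs of loci, Jph2 and Trdn had intervals that did not overlap, and the other 5 pairs overlapped. They treat peaks as independent although peaks gather in groups, so they are too narrow, and the windows were chosen with earlier results of these data known.

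**Figure D1:**
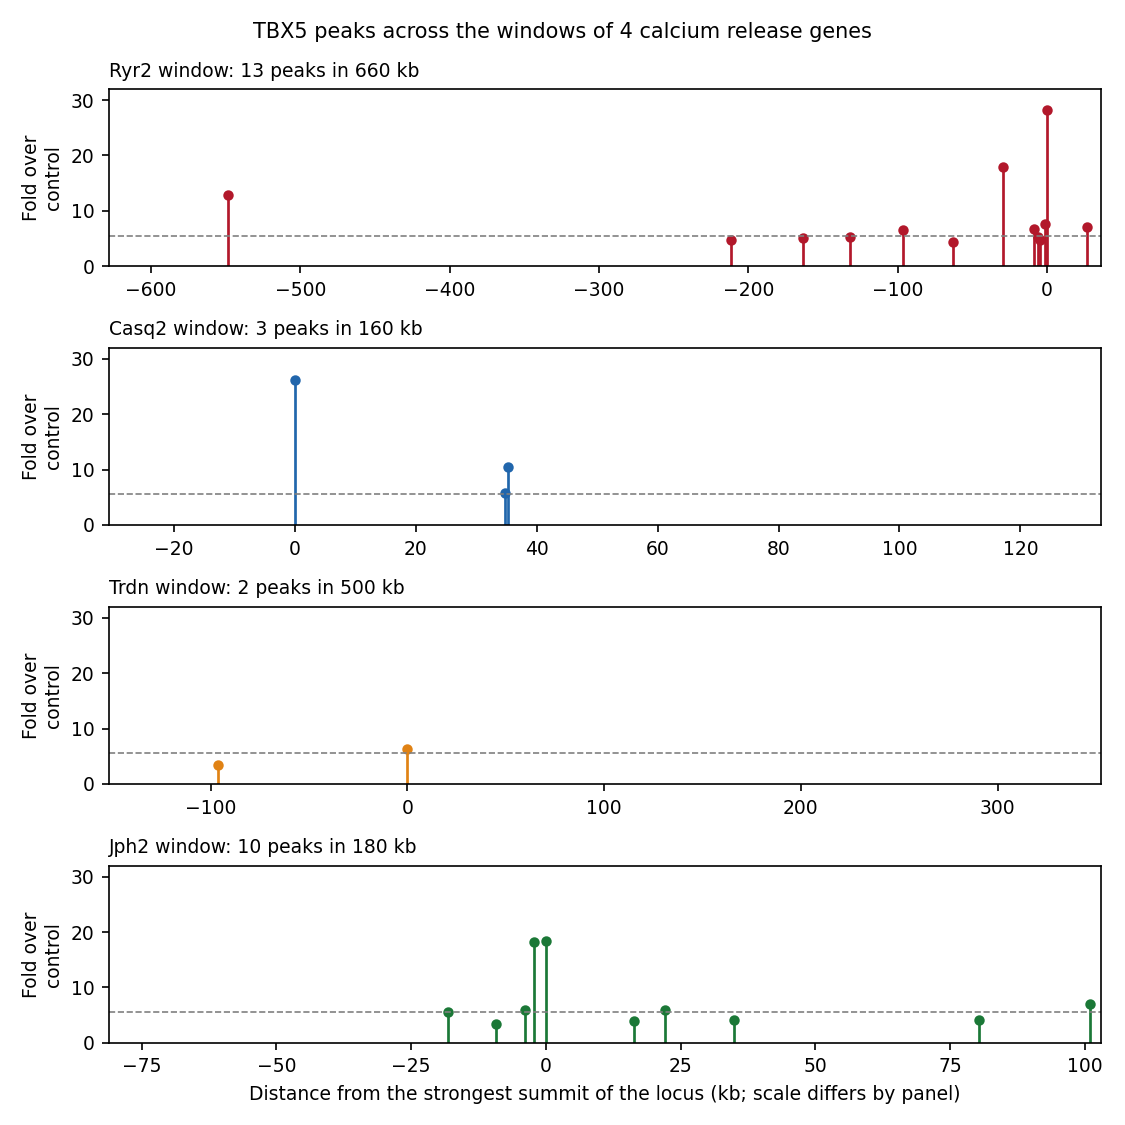
TBX5 peaks in each window. The x axis is the distance from the strongest summit of the locus in kb (a different scale in each panel, spanning the whole window), the y axis the authors' fold, each line 1 peak and the dashed line the median fold of the list, 5.52. Ryr2 and Jph2 had their highest peaks among close neighbours, and the Trdn window held 2 peaks, 1 below the dashed line and 1 just above it.

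Set beside all consecutive windows of the same length over chromosomes 1 to 19, 10 or more peaks in 180 kb, as at Jph2, were found in 21 of 13170 windows (0.159%). As many peaks as at Ryr2, 13 in 660 kb, were found in 54 of 3585 windows (1.51%), and the fullest held 22. Casq2's 3 peaks in 160 kb were matched by 999 of 14817 windows (6.74%). The 2 peaks of Trdn in 500 kb were matched by 38.6% of 4735 windows, so a number such as that of Trdn was common at this length. These shares describe the list and are no test.

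**Figure D2:**
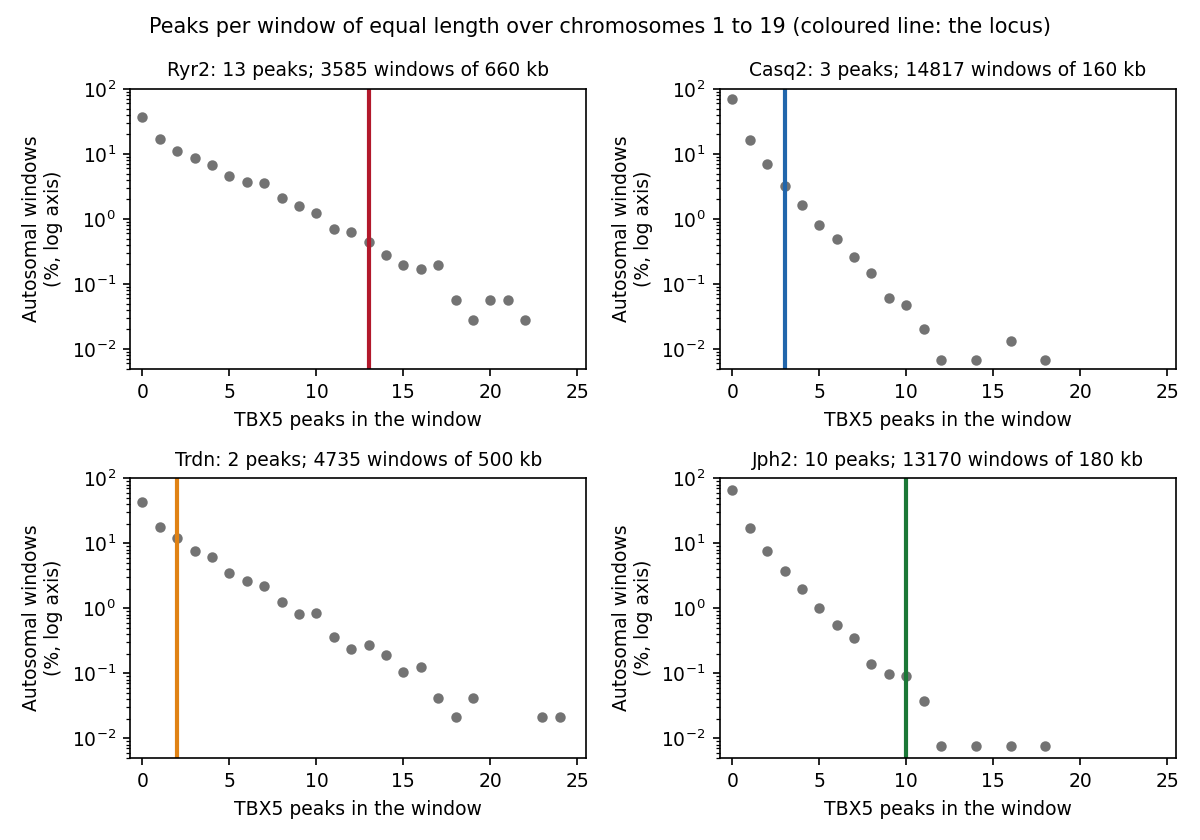
Share of autosomal windows (y axis, %, log axis) by number of TBX5 peaks (x axis), for windows as long as each locus. The coloured line marks the locus: 13 peaks at Ryr2, 3 at Casq2, 2 at Trdn and 10 at Jph2.

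At Ryr2, the release channel, TBX5 peaks crowded towards the high-coordinate end of the window. The last 7 of the 13 summits lay within 55.7 kb, 8.45% of the window, and held 73.6% of the fragments counted at the 13 summits. This stretch was taken from these same peaks and begins at the second-highest of them, so both shares are a description only. The highest was the peak on chromosome 13 from 12225634 to 12226451, with 178 TBX5 fragments (153 to 206) against a control level of 4 (fold 28.2). It was 818 bp wide, wider than 99.8% of the list, and was the ninth of the list by score. It closed a group of 5 peaks within 9.39 kb, from 12217062 to 12226451. The other 4 of that group were far below it, with 33, 17, 17 and 31 fragments and folds of 6.74, 5.23, 4.79 and 7.52. The nearest of them had its edge 936 bp and its summit 1.39 kb away, and whether both are 1 enriched region was not tested.

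The second peak of Ryr2, from 12196427 to 12196909, stood apart from that group. Its summit was 29.2 kb below the highest one and held 90 fragments (72.4 to 111) against a control level of 3 (fold 17.9). Together both peaks held 268 of the 535 fragments at Ryr2 summits (50.1%), and the fragment intervals of the 2 did not overlap. The third, from 11677680 to 11678018, was the most remote of all members, 548 kb from the highest summit, with 48 fragments (35.4 to 63.6) over a control level of 2 and a fold of 12.9. No peak of the list lay between it and the next summit 337 kb further on, nor in the 2032 kb before the window.

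Between that gap and the crowded end, Ryr2 carried 5 peaks below the list median of 32 fragments, with 12, 13, 25, 17 and 26 and folds of 4.29 to 6.61. Peaks 2 and 3, from 12014283 to 12014407 and from 12062317 to 12062441, were 125 bp wide, the lowest width in the list, which 4.01% of all peaks had. Peaks 2, 3 and 5 rested on the genome background of 1.18 control fragments per position. From peak 3 on, the summits of 5 peaks in a row (the last being the one with 90 fragments) followed each other at 31.8, 35.1, 33.9 and 33.5 kb. This near-even spacing was noticed after the positions were seen and was not tested. The last peak of the window, from 12252262 to 12252552, held 28 fragments (fold 7.08).

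The window edge mattered at Ryr2. With 10% of its length taken off each end, the window kept 6 of the 13 peaks, and its highest summit was the one with 48 fragments. Beyond the high-coordinate edge, the next 660 kb held 12 more peaks, the nearest 28.5 kb past the edge with a fold of 5.17 and the strongest with a fold of 29.3. An equal stretch on the other side held 0.

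At Casq2, the calcium buffer, TBX5 peaks were few, and 2 of 3 had a fold above 10. The highest, on chromosome 3 from 101868484 to 101868826, held 71 fragments (55.5 to 89.6). It rested on the genome background of 1.18, and its fold of 26.1 exceeded that of 99.2% of the list. Its width was 343 bp. A pair of peaks followed 34.7 kb further on. One, from 101903204 to 101903540, held 28 fragments (18.6 to 40.5), with a fold of 5.76. The other, from 101903753 to 101904055, held 55 (41.4 to 71.6), with a fold of 10.4.

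The edges of that Casq2 pair were 212 bp apart and the summits 482 bp, and whether they are 1 enriched region was not tested. Joined, they left 2 peaks at the locus. The lower peak of the pair gave the Casq2 minimum, and its fold was still above the median of the list, 5.52. The other 96.1 kb of the window up to its high-coordinate edge held no peak. Outside the window the nearest peaks were 42.7 kb beyond that edge, with a fold of 6.24 on 16 fragments, and 229.8 kb below the other edge, with a fold of 3.29.

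At Trdn, the linker, TBX5 peaks were sparse and both held fewer fragments than the list median of 32. The peak on chromosome 10 from 32803529 to 32803712 had 12 fragments (6.2 to 21.0) against a control level of 2 (fold 3.48), and a −log10 q of 1.38, just above the lowest value of the list, 1.3. It ranked 8816 of 8849 by score. Its summit lay at 4.89% of its width, whereas the median peak of the list had it at 48.9% and 0.554% of peaks had it in the first 5%. The peak from 32899531 to 32899677 had 16 fragments (9.15 to 26) on the genome background (fold 6.24). The 2 summits were 96.1 kb apart, and their fragment intervals overlapped.

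From the second Trdn peak on, no peak of the list was met for 3959 kb. The nearest peak on the other side was 251.6 kb outside the window, with a fold of 5.52 on 14 fragments. At a −log10 q of 5 or more, 1 Trdn peak was left, and 0 were left in the higher-scoring part of the list. The lowest −log10 q in the list, 1.3, corresponds to a q near 0.05. Sites with a higher q are not in the list, so weaker binding at Trdn was not detectable here.

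At Jph2, the membrane tether, TBX5 peaks were densest, and a pair of very high ones lay near the middle of the window. The peak on chromosome 2 from 163188517 to 163189381 held 186 fragments (160 to 215) against a control level of 7 (fold 18.4). Only 13 peaks of the list had more fragments, and at 865 bp it was the widest member. Its neighbour from 163186646 to 163187199 held 138 fragments (116 to 163) against a control level of 5 (fold 18.3). Their summits were 2.24 kb apart, their edges 1317 bp, and their fragment intervals overlapped slightly. The pair held 56.6% of the 572 fragments at Jph2 summits.

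At Jph2, the pair closed a group of 5 peaks that spanned 18.7 kb from 163170723 to 163189381. The other 3 of the group were weaker, and all lay on the low-coordinate side of the pair. Their fragments were 30, 22 and 36 and their folds 5.62, 3.33 and 5.86. A second group of 3, from 163205273 to 163224025, had 24, 52 and 35 fragments and folds of 3.98, 5.99 and 4.08. Of these, the peak with 52 fragments (38.8 to 68.2) exceeded 80.9% of the list in fragments but 57.9% in fold, over a control level of 6. The peak from 163269350 to 163269528 was the lowest of the locus by score, with 15 fragments (fold 4.10).

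The last Jph2 peak, from 163289829 to 163290033, held 34 fragments (fold 6.94), and its summit lay 71 bp inside the window edge. A peak with 47 fragments and a fold of 9.20 lay 513 bp outside that edge, so the window cut a close pair apart. On the other side, the nearest peak was 430.6 kb beyond the edge.

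**Figure D3:**
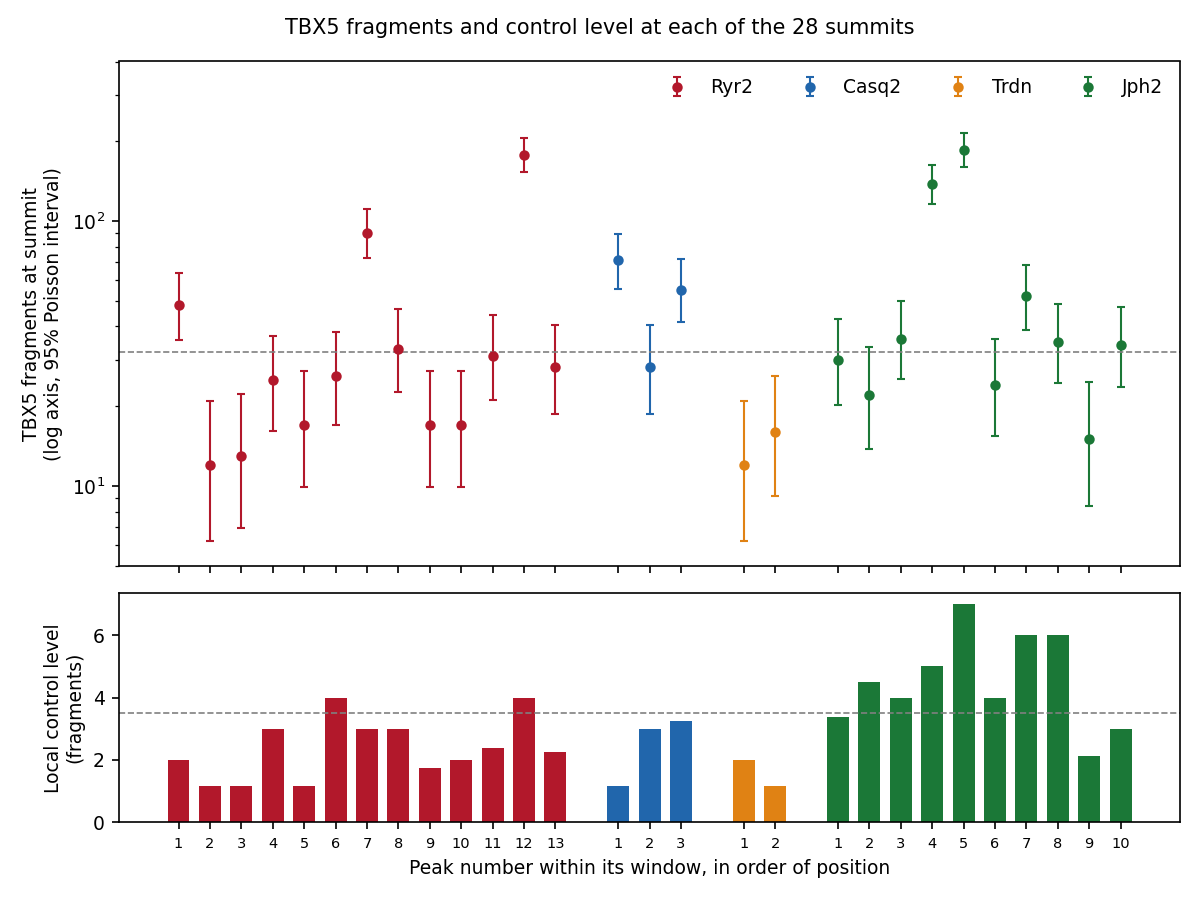
TBX5 fragments at each summit (upper panel, log axis, with 95% Poisson intervals) and local control level (lower panel, fragments per position), for the peaks of each locus in order of position; dashed lines are the medians of the list, 32 fragments and a control level of 3.5. The highest summits held 186 fragments at Jph2 and 178 at Ryr2, both Trdn summits lay below the list's median, and the highest control level, 7, was at Jph2.

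By fragments at the strongest summit, the order of the loci was Jph2 (186), Ryr2 (178), Casq2 (71) and Trdn (16). The intervals of Jph2 and Ryr2 overlapped, so these 2 did not differ beyond counting error. Ryr2 exceeded Casq2 by 2.51 times and Casq2 exceeded Trdn by 4.44 times, with intervals that did not overlap. By fold the order was another one, with Ryr2 at 28.2 (24.2 to 32.6, control level held fixed), Casq2 at 26.1 (20.5 to 32.8), Jph2 at 18.4 (15.9 to 21.2) and Trdn at 6.24 (3.77 to 9.85). Casq2 reached nearly the fold of Ryr2 on fewer fragments over a lower control level (1.18 against 4). The control levels carry counting error of their own: read as counts, 4 at Ryr2 has an interval of 1.09 to 10.2 and 7 at Jph2 one of 2.81 to 14.4. These overlap, but only under that reading. Other members had levels such as 2.25, so a level need not be a plain count, and these intervals may not give its true counting error. The order of Ryr2 and Jph2 by fold is not settled.

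Control levels differed between the loci. The median was 4.25 at Jph2 (range 2.13 to 7), 3 at Casq2, 2.25 at Ryr2 (1.18 to 4) and 1.59 at Trdn, against 3.5 in the whole list. Levels of at least 3 were seen at 9 of 10 Jph2 peaks, 2 of 3 Casq2 peaks, 5 of 13 Ryr2 peaks and 0 of 2 Trdn peaks, 16 of 28 in all (57.1%, exact 95% interval 37.2 to 75.5), beside 64.4% of the list. The part of the control library in the peak numbers of the loci was not tested.

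Strong peaks made up a larger share of the members than of the list, but with few peaks. Of 28 members, 7 had a fold of at least 10 (25%, exact 95% interval 10.7 to 44.9), beside 13.7% of the whole list, which lies inside that interval. These 7 were 3 at Ryr2, 2 at Casq2 and 2 at Jph2. The result moved with the threshold. At a fold of 8 the count was the same 7 peaks, beside 22.9% of the list, and at 15 it was 5 of 28 (17.9%), beside 4.78%. No member had a fold between 7.52 and 10.4, a range that held 14.0% of the list. The limits of this range are themselves folds of members, so it holds no member by construction and shows no lack of members. The member just above the threshold was the higher peak of the Casq2 pair, and the one just below it was the Ryr2 peak next to the highest summit.

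**Figure D4:**
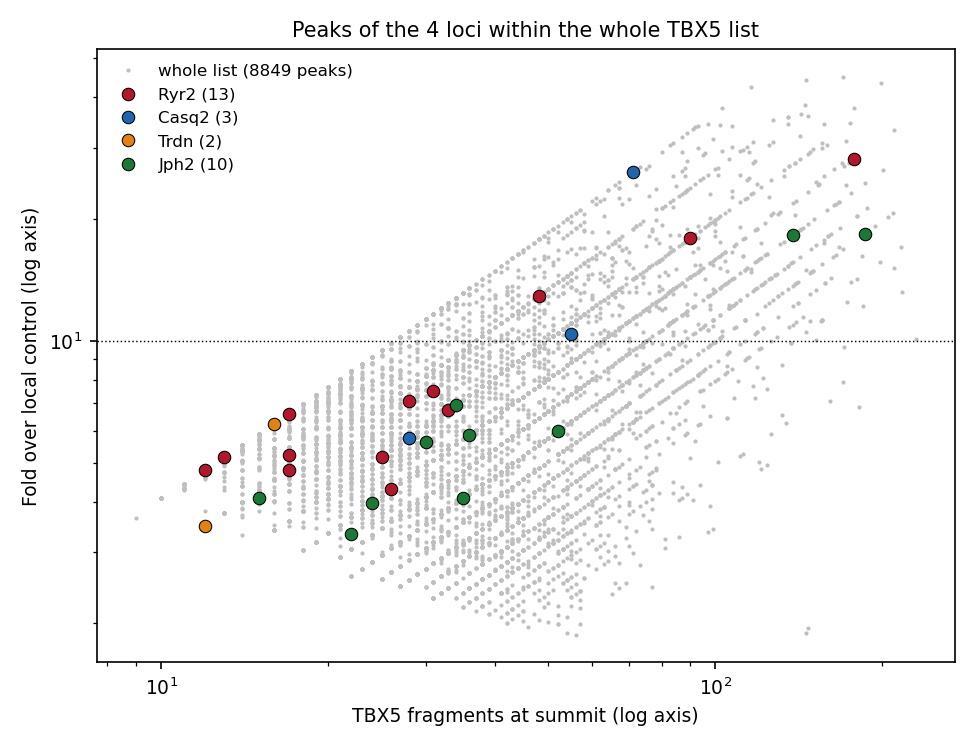
Fold (y axis, log axis) against TBX5 fragments at the summit (x axis, log axis) for the 8849 peaks of the list in grey and the 28 members in colour; the dotted line is a fold of 10. Grey diagonals are peaks at the same control level, and 7 members lie above the line.

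The typical member was close to the typical peak of the list. The median fold was 5.92 over the 28 members and 5.52 in the list, and the median fragments were 29 and 32. By locus, the median fold was 10.4 at Casq2, 6.61 at Ryr2, 5.74 at Jph2 and 4.86 at Trdn. Ordered by −log10 q, Jph2 and Ryr2 changed places. Members were 125 to 865 bp wide with a median of 254.5 bp, against 202 bp in the list, and 17 of 28 were wider than that. The highest fold was 4.27 times the median of its own locus at Ryr2, 3.21 at Jph2, 2.51 at Casq2 and 1.28 at Trdn. This order is also that of the peak numbers (13, 10, 3 and 2), and such a ratio tends to rise with the number of peaks. The ratios therefore do not compare the contrast within the loci.

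By count, members had neighbours more often than the peaks of the list, mainly because of Jph2. A peak within 12500 bp, edge to edge, was present for 16 of 28 members (57.1%, exact 95% interval 37.2 to 75.5), beside 36.5% of the list. These were 9 of 10 at Jph2 (90%), 5 of 13 at Ryr2 (38.5%, near the list), 2 of 3 at Casq2 and 0 of 2 at Trdn. At Jph2, many peaks in a short window lie close together, so this share is not independent of its density. Groups of 3 or more held 13 of 28 members (46.4%), beside 15.6% of the list, all of them in the Ryr2 group and the Jph2 groups. Peaks of a group share this membership, so the intervals are too narrow. At this distance, Jph2 and Ryr2 each had a group of 5 peaks that ended, on the high-coordinate side, at the highest summit. The likeness depended on the distance and was not tested. At 25 kb the Jph2 group would run past its highest summit, since the next edge lay 15891 bp on. At 5 kb it would lose its first peak, 8833 bp from the second. The 2 loci differed in spread. The longest distance between neighbouring summits was 45.5 kb at Jph2 and 337 kb at Ryr2, and the median distance was 9.04 kb and 29.2 kb. The windows were 180 kb and 660 kb long, so a distance as long as that of Ryr2 could not be seen at Jph2. Below the Jph2 window, no peak lay within 430.6 kb of the edge.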

How the data were processed

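TBX5 and IgG ChIP-seq of adult mouse ventricle was deposited with 1 merged TBX5 peak list, used here; the IgG sample was not analysed here. Per the submitters' processing notes, the tools were MACS2 2.1.1.20160309.0, Bowtie2 2.2.6.2 and FastQC 0.10.0, with build mm9; its settings, control library and the merging step are not stated in the labels. The deposited columns are the authors' fold (a ratio over the local control), −log10 p, −log10 q, score (the whole part of 10 times −log10 q in 8846 of 8849 peaks) and summit offset. MACS2 gives fold = (scaled pileup + 1) / (control level + 1) and the Poisson tail of that pileup. Only whole fragment numbers were tried. With a scale of 0.787 and a background of 1.18, a match to the deposited −log10 p was found at all 8849 peaks (tolerance 0.0005, largest difference 0.00016). For 39 peaks, 1 member among them, a second solution existed and the closer was taken. On data simulated with the same formula, 100% of 2412 and 99.96% of 2808 peaks were recovered. Depth per library is not in the list, and fragments per summit set the precision.

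Peaks with edges within 12.5 kb were grouped. Autosomes were tiled from first to last summit. Named peaks are the 3 highest scores, folds of 10 or more, the lowest score and the widest of each locus; others were added after their values were seen. No set or chance test was run. Other calcium release genes were not placed, for want of an mm9 annotation. Members and lists were chosen with earlier results of these data known. Promoters came from RefSeq (3 of 4 genes matched), read before the outermost start of the gene table. Computation used scipy 1.17.1, numpy 2.4.6, matplotlib 3.10.9, pandas 2.3.3 and Python 3.11.15. Alternatives covered window edges, thresholds, merging and stitching.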

Additional observations from a re-analysis of the deposited data

How the results depend on the processing

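Of 63 alternatives, all planned, 54 stayed within a factor of 1.5 for a number of peaks, the exact 95% interval of a share, median or fragment number, or kept the order or number, and 9 did not. Only the value of the members was judged. Fold thresholds of 8 and 15 are thus among the 54, although the list's share went from 13.7% to 22.9% and 4.78%. Windows shrunk by 10% at each end left 6 peaks at Ryr2 and a highest Ryr2 summit of 48 fragments, since the crowded end fell outside. The higher-scoring part of the list left 6 peaks at Ryr2, 6 at Jph2 and 0 at Trdn, with 46.7% of 15 members at a fold of 10 or more (27.2% of that part of the list) and a median fold of 7.52 (7.69). A −log10 q of 5 or more left 1 peak at Trdn. Ordered by −log10 q in place of fold, 2 of 4 loci kept their place. Apart from the crowded end cut off at Ryr2, what moved these results was not tested. No paired analysis was possible because replicates are merged into 1 list, and for the same reason none could be left out. Depth limits the low summits, such as the Trdn peaks at 12 and 16 fragments.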
